A study of Mus musculus with 8 samples.

Results

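The general transcription factors of RNA polymerase II and the multi-subunit factor TFIID were examined in haematopoietic stem cells of mouse bone marrow. The set held 31 genes of the 53715 in the count files, taken by name from the known make-up of TFIIA, TFIIB, TFIIE, TFIIF, TFIIH and TFIID. It was drawn up after results of the same genotype comparison were known, in which Gtf2a1 and Taf8 had stood out. Differences between genotypes in these genes are therefore given as a description and support nothing. Of the 31 members, 30 had enough counts for the comparison, and Taf9 did not.

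Total RNA was sequenced from 8 mice, 4 labelled as Gata2; Mx1-Cre heterozygotes and 4 wild type, 1 library per mouse. The sort took LSK cells (no lineage markers, Sca-1 and Kit present) that were CD48- and CD150+. All mice of both groups were 8 to 12 weeks old and had been given 6 doses of pIpC, a double-stranded RNA mimic that induces interferon and so switches on Mx1-Cre. The Mx1 promoter acts in many interferon-responsive cells and not in stem cells alone, and no label tells if the wild-type mice had it. Effects of the transgene and of the Gata2 allele cannot be told apart if they lacked it.

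Libraries held 16750778 to 22861884 fragments assigned to genes. Gata2, the targeted gene, had 35.5, 61.9, 36.7 and 45.1 CPM (counts scaled to library size by TMM) in heterozygote-labelled replicates 1 to 4, against 30.1, 45.3, 29.1 and 38.5 CPM in wild-type replicates 1 to 4. It was thus not lower under the heterozygote label (log2 fold change 0.33, SE 0.23, adjusted p = 0.858 by edgeR). Counts covered all exons of the gene, so a recombined allele was not measured separately, and every direction below follows the deposited labels. All 10 stem cell markers listed exceeded 1 CPM on average. The summed levels of the marker lists for stem, progenitor, erythroid, myeloid, B, T and NK, megakaryocytic and stromal cells overlapped between the genotypes, at 781 to 890 CPM against 723 to 1046 CPM for the stem cell list, in heterozygote-labelled and wild-type libraries.

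General transcription factors assemble at gene starts before transcription begins. TFIID, made of the TATA-binding protein and its associated factors (TAFs), recognises the core promoter, TFIIA steadies it on the DNA, and TFIIB and TFIIF bring in the polymerase. TFIIE then recruits TFIIH, whose translocase opens the DNA and whose cyclin-dependent kinase module, CAK, phosphorylates the polymerase tail. Core TFIIH also opens DNA in nucleotide excision repair.

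The stretches just upstream of the start sites of Gtf2a1 and Taf8, the genes on which the comparison turned, and of Tbp, the TATA-binding subunit itself, are shown to let the core promoter letters be read. They come from RefSeq on GRCm38.p6, end at the base before the start site, and are written 5′ to 3′ on the gene's strand. Capitals mark matches to the searched motifs, CCGGAAG in Gtf2a1 and GGGCGG, read on the other strand, in Taf8 and Tbp.
Gtf2a1, chr12:91590488-91590637, minus strand: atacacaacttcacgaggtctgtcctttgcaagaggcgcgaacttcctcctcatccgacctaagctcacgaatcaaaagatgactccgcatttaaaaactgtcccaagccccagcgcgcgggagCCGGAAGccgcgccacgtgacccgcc
Taf8, chr17:47502292-47502441, minus strand: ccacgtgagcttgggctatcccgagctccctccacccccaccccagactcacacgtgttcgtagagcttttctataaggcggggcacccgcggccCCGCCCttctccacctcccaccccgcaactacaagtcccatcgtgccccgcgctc
Tbp, chr17:15499738-15499887, plus strand: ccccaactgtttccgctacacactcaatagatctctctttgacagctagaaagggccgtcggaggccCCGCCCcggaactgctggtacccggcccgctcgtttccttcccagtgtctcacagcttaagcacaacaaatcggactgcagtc

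The RefSeq promoter table, which spans 250 bases before to 50 after each start, held 31 promoters of 26 members and none matched to Ccnh, Ercc3, Gtf2e2, Taf2 and Taf7. Each motif was searched on both strands, and matches of different motifs do not overlap in the stretches above. The TATA box letters TATAAA stood in 6 of the 31 member promoters (19.4%), against 13.6% of all 32851 promoters in the table. The GC box letters GGGCGG stood in 20 (64.5%, against 35.7% of all), and the ETS motif letters CCGGAAG in 10 (32.3%, against 8.86% of all). The GATA letters AGATAA stood in 3 (9.68%, against 11.2% of all), those of Gtf2h5, Mnat1 and Taf10. A match describes letters and no binding site.

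By level per kilobase, the set ran from above 1.01% (Ercc2) to above 93.5% (Ccnh) of the coding genes tested. CPM per kilobase of exon divides by all exon bases of a gene, so ranks and partner ratios depend on that length. Gtf2a2, for one, has 4047 exon bases and a longest transcript of 1613. On this scale the member median was 11.4 over all 8 libraries, against 4.69 for the 11418 protein-coding genes tested. Of the 31 members, 25 lay above that coding median. Ccnh, the cyclin of the CAK module, was the highest member at 98.1 CPM per kb, above 93.5% of coding genes. Gtf2e2 followed at 54.3, Gtf2h5 at 46.9 and Gtf2a1 at 44.2 CPM per kb, and the library ranges of these 3 genes overlapped. At the lower end stood Taf4 at 0.593, Taf9 at 0.204 and Ercc2 at 0.120 CPM per kb.

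**Figure D1:**
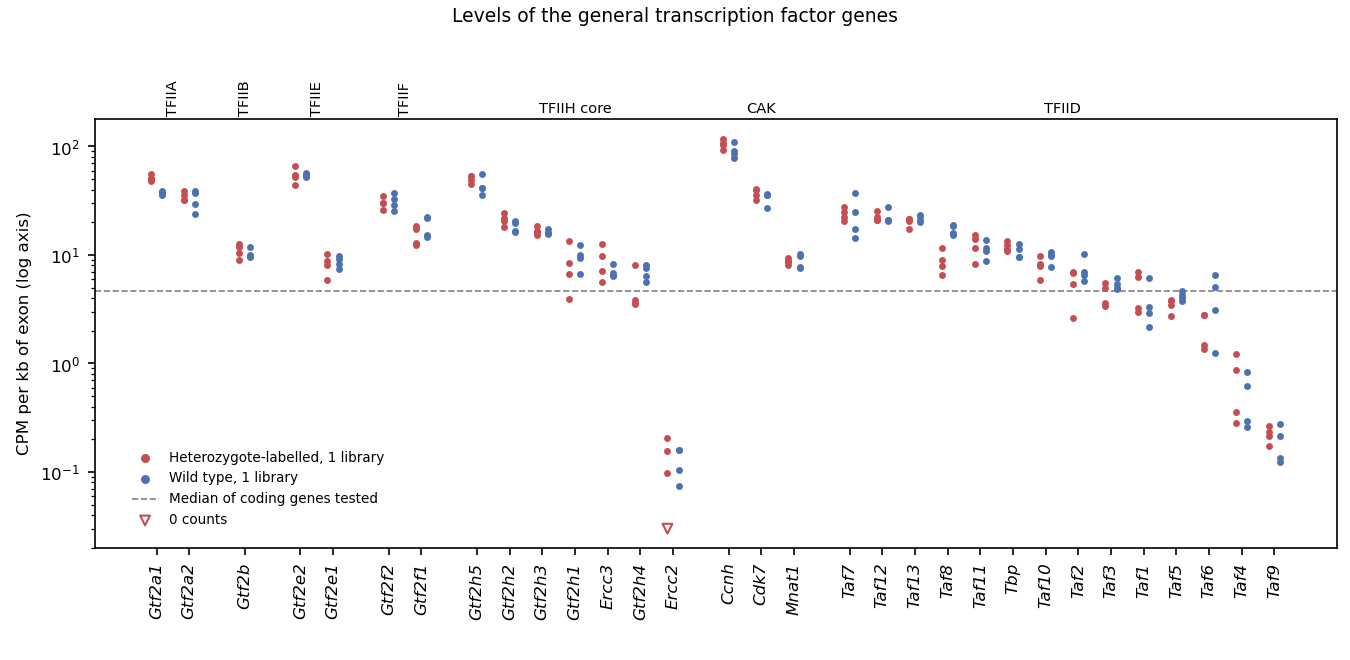
Level of each of the 31 members in CPM per kilobase of exon (log axis), grouped by complex and ordered by level, with 1 point per library, heterozygote-labelled on the left and wild type on the right of each gene, and an open triangle for 0 counts. Most members lie above the dashed median of the coding genes tested, 4.69 CPM per kb, and Taf4, Taf9 and Ercc2 lie at or below 1.23 CPM per kb in every library.

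The values of the lowest members have limits that differ from gene to gene. Taf9, a histone-fold TAF, spans chr13:100651579-100656060 on GRCm38, and 1564 of its 2120 exon bases (73.8%) are shared on the same strand with Ak6. Fragments that fall on both genes were not counted for either, so its 9, 6, 9 and 11 counts in heterozygote-labelled replicates 1 to 4 and 11, 12, 6 and 6 in wild-type replicates 1 to 4 do not measure its transcript. Ercc2, the TFIIH helicase used in excision repair, had 13, 14, 0 and 8 counts in heterozygote-labelled replicates 1 to 4 and 16, 9, 14 and 7 in wild-type replicates 1 to 4. The 0 in heterozygote-labelled replicate 3 allows a level of up to 0.164 CPM, which covers counting error only. Ercc2 shares 11 exon bases with another gene on its own strand. On the other strand, genes overlap 1769 of its 4170 exon bases. The largest other antisense overlaps were those of Tbp, Taf10 and Taf6, at 2582, 2106 and 1185 exon bases. Counting was strand-specific, but leakage of antisense fragments into the counts was not tested.

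GC-rich members tended to have low levels. The Spearman correlation of level per kilobase with the GC content of the longest transcript was -0.45 across the 31 members and -0.22 across the 11418 coding genes tested, where all points share the same 8 libraries. Ercc2, Taf4 and Gtf2h4 had the most GC-rich transcripts of the set, at 59.1%, 58.7% and 56.3% GC. The part of base composition in these levels was not tested.

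Between the genotypes no member passed. With edgeR's quasi-likelihood test and adjustment over all 13992 genes tested, 0 of 30 members and 0 genes in all (0%) reached an adjusted p of 0.05, the smallest adjusted p being 0.834. DESeq2 on the same genes called 29 genes (0.207%), among them 2 members, with 1 of 30 members higher beside 0.107% of all genes and 1 lower beside 0.1%. Limma-voom called 0 genes (0%). By edgeR 792 genes (5.66%) and 2 members had an unadjusted p under 0.05, 1 member higher beside 2.37% of all genes and 1 lower beside 3.29%. By limma-voom it was 1412 genes (10.1%) and 2 members. In each case the 2 members were Gtf2a1 and Taf8, the pair that had prompted the set, so nothing is read from these counts. Fewer cells of a type and less RNA per cell cannot be told apart in these bulk samples.

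The set as a whole sat on the zero line. Of the 30 members, 14 had a positive and 16 a negative log2 fold change, against 48.0% positive among all genes tested. The member median was -0.0067 and that of all genes tested -0.02, and the median size of the difference regardless of sign was 0.20 in members and 0.27 in all genes. Summed over the 31 members, the level was 2264, 2370, 2422 and 2316 CPM in heterozygote-labelled replicates 1 to 4, against 2140, 2024, 2428 and 2201 CPM in wild-type replicates 1 to 4. The sums overlapped, since wild-type replicate 3 was the highest of all 8.

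**Figure D2:**
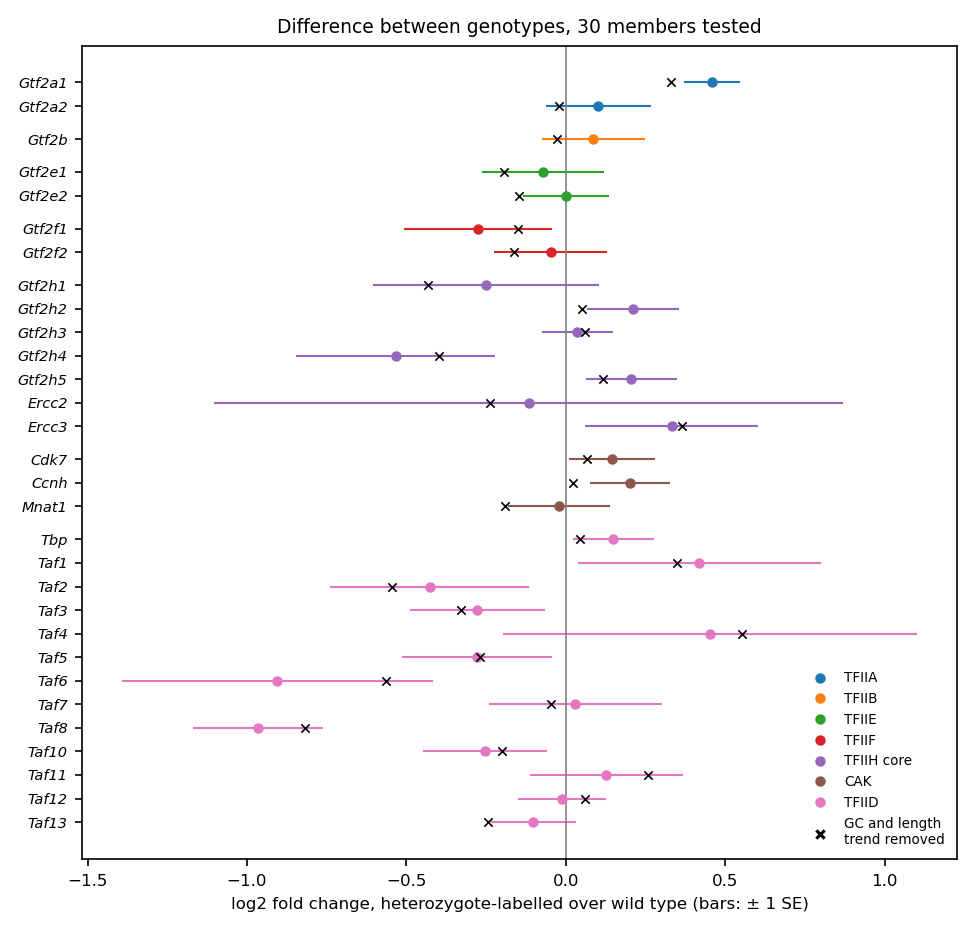
Log2 fold change of heterozygote-labelled over wild-type libraries for the 30 members tested, by complex, with bars of 1 SE derived from the edgeR test. Crosses give the value after each library's trend on GC content and gene length was removed. Gtf2a1 at 0.46 and Taf8 at -0.97 lie farthest from 0 relative to their bars.

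Gtf2a1 encodes the precursor of the alpha and beta subunits of TFIIA, which bind TBP. The gene (ENSMUSG00000020962.14) spans chr12:91555262-91590487, minus strand, on GRCm38. It held 297, 321, 346 and 314 CPM in heterozygote-labelled replicates 1 to 4, against 236, 228, 242 and 225 CPM in wild-type replicates 1 to 4. The lowest heterozygote-labelled library exceeded the highest wild-type one, a separation that 231 of all genes tested (1.65%) showed in this direction and 485 (3.47%) in either. The means were 320 ± 20.1 and 233 ± 7.58 CPM (SD, n = 4 each), a fold of 1.37 (log2 0.46, SE 0.09).

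Gtf2a2, which encodes the gamma subunit that pairs with those of Gtf2a1, did not separate. It held 129, 131, 157 and 146 CPM in heterozygote-labelled replicates 1 to 4, against 119, 95.8, 158 and 151 CPM in wild-type replicates 1 to 4 (log2 fold change 0.10, SE 0.16). Wild-type replicate 2 was the lowest and wild-type replicate 3 the highest library. The ratio of Gtf2a1 to Gtf2a2, both per kilobase, was 1.48 ± 0.0845 in heterozygote-labelled and 1.20 ± 0.272 in wild-type libraries (SD, n = 4 each), and the groups overlapped. Tasp1, the protease that cleaves the Gtf2a1 precursor, averaged 31.1 ± 9.58 and 41.4 ± 8.51 CPM in heterozygote-labelled and wild-type libraries (log2 fold change -0.41, SE 0.25).

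Taf8 encodes a histone-fold TAF that pairs with Taf10 and helps to anchor Taf2 in TFIID. The gene (ENSMUSG00000023980.6) spans chr17:47488050-47502287, minus strand, on GRCm38. It held 18.3, 22.2, 25.1 and 32.2 CPM in heterozygote-labelled replicates 1 to 4, against 51.2, 42.9, 44.5 and 52.5 CPM in wild-type replicates 1 to 4. The groups did not overlap, as in 254 of all genes tested (1.82%) that separated in this direction. The means were 24.5 ± 5.85 and 47.8 ± 4.79 CPM (SD, n = 4 each), a fold of 0.512 (log2 -0.97, SE 0.20).

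Library base composition also differed between libraries. Across genes, a library's deviation correlated with GC content at -0.0342, -0.0873, -0.0988 and -0.0366 in heterozygote-labelled replicates 1 to 4 and at 0.180, 0.232, -0.162 and 0.0402 in the wild-type ones. The Gtf2a1 transcript has 40.8% GC and that of Taf8 54.2%. After removal of each library's trend on GC and length, the log2 fold change was 0.33 (SE 0.09) for Gtf2a1 and -0.82 (SE 0.22) for Taf8. Across the 30 members the fold change correlated with GC content at a Pearson r of -0.39, and across all genes tested at -0.19.

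**Figure D3:**
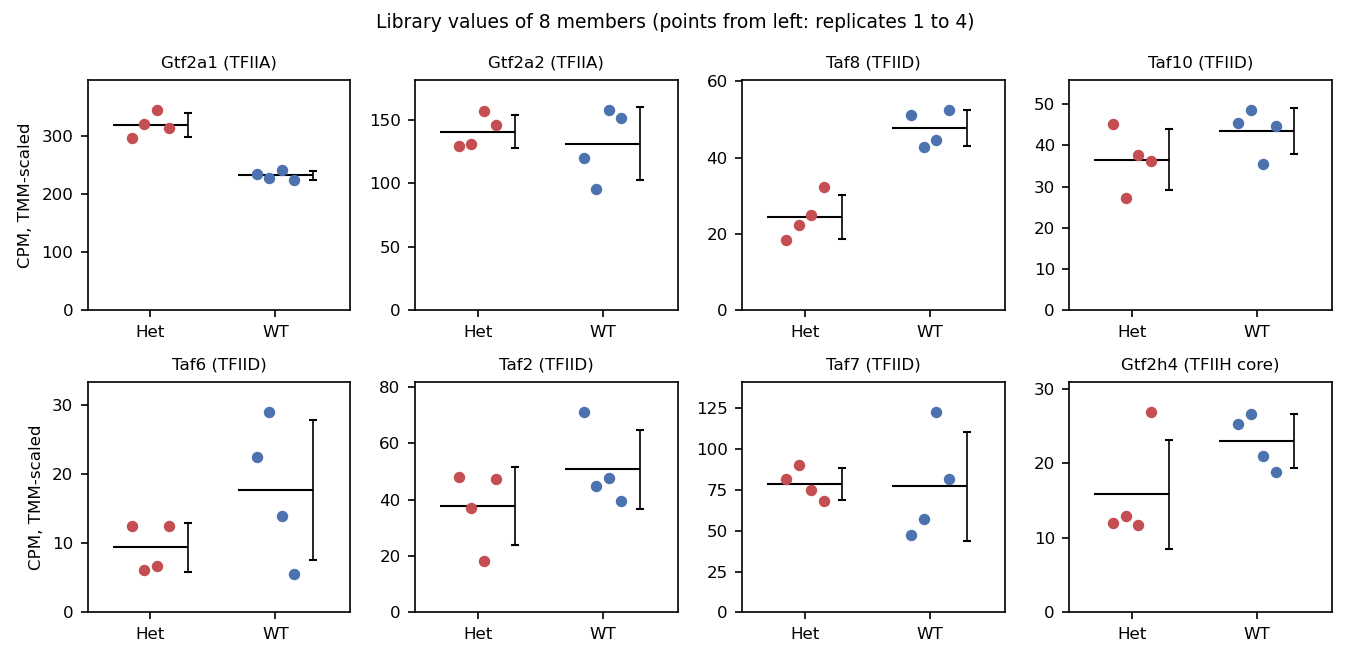
CPM of 8 members in each library, heterozygote-labelled on the left and wild type on the right of each panel, with points for replicates 1 to 4 from left to right, lines at the means and bars of 1 SD (n = 4). Gtf2a1 and Taf8 separate by genotype, and their partners Gtf2a2, Taf10 and Taf2 overlap.

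The other TFIID subunits that contact Taf8 overlapped between the genotypes. Taf10, which pairs with Taf8 or Taf3, held 45.1, 27.1, 37.6 and 36.2 CPM in heterozygote-labelled replicates 1 to 4, against 45.5, 48.6, 35.6 and 44.7 CPM in wild-type replicates 1 to 4 (log2 fold change -0.25, SE 0.19). Taf2, which contacts promoter DNA, held 48.1, 37.0, 18.2 and 47.3 CPM under the heterozygote label and 71.0, 44.8, 47.6 and 39.3 CPM in wild type, in the same order (-0.43, SE 0.31). Heterozygote-labelled replicate 3 was the lowest library for Taf2 by far. The ratio of Taf8 to Taf10, both per kilobase, was 0.671, 1.35, 1.10 and 1.47 in heterozygote-labelled replicates 1 to 4 and 1.86, 1.46, 2.06 and 1.94 in wild-type replicates 1 to 4. Heterozygote-labelled replicate 4 lay just above wild-type replicate 2, so the ratios overlapped. Of Taf3, whose PHD finger reads a histone mark of active promoters, the ratio to Taf10 was 0.560 ± 0.134 in heterozygote-labelled and 0.563 ± 0.0765 in wild-type libraries (SD, n = 4 each).

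**Figure D4:**
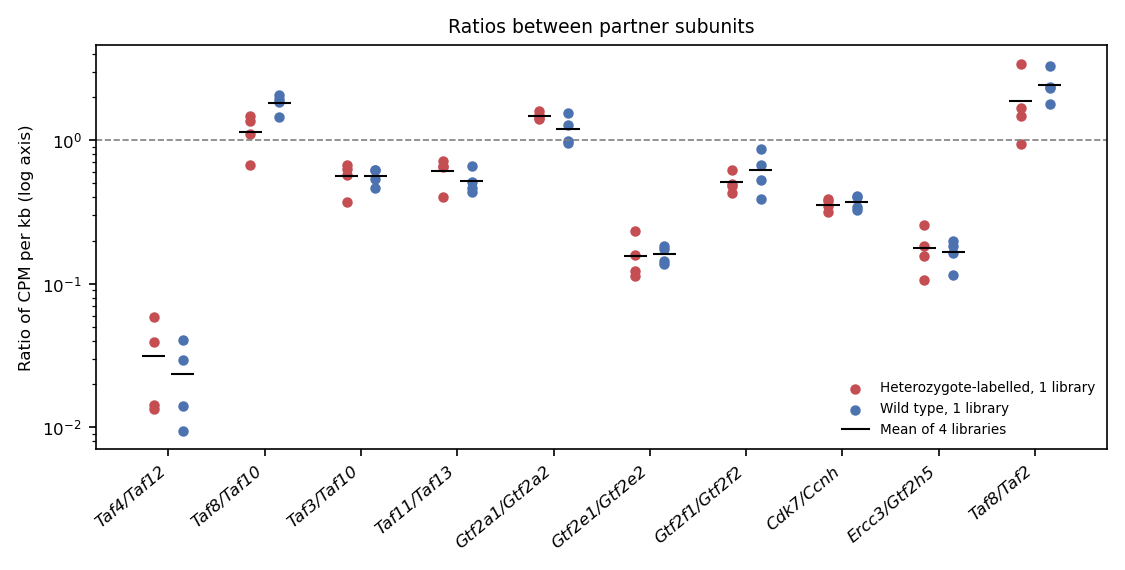
Ratio of CPM per kilobase between partner subunits (log axis) in each library, heterozygote-labelled on the left and wild type on the right of each pair, with lines at the means of 4 libraries. The groups overlap in all 10 pairs drawn, and Taf4 stays at or below 0.0589 of its partner Taf12 in every library.

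Among the histone-fold pairs read, Taf4 and Taf12 lay far apart in level. Taf4, which forms a histone-fold pair with Taf12, held 1.30, 1.65, 4.04 and 5.68 CPM in heterozygote-labelled replicates 1 to 4, against 1.37, 2.86, 1.20 and 3.83 CPM in wild-type replicates 1 to 4. Taf12 stood at 84.3 to 102 CPM under the heterozygote label and 83.3 to 111 CPM in wild type. Taf11 and Taf13, which also pair, lay closer, at a ratio per kilobase of 0.607 ± 0.139 in heterozygote-labelled and 0.518 ± 0.0987 in wild-type libraries (SD, n = 4 each). For Taf6 and its partner Taf9 no ratio was read, because Taf9 was barely counted.

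Several TFIID subunits varied strongly between libraries of 1 genotype. Each mouse gave 1 library, so spread between mice and spread between library preparations cannot be told apart. The transcripts also differ in GC content, at 55.0% for Taf6 and 39.6% for Taf7, and library GC trends differed. The part of those trends in the spreads was not tested. Taf6, a core histone-fold TAF, held 12.6, 6.12, 6.65 and 12.5 CPM in heterozygote-labelled replicates 1 to 4, against 22.5, 29.0, 13.9 and 5.55 CPM in wild-type replicates 1 to 4. Wild-type replicate 4 was the lowest of all 8, so the groups overlapped despite a log2 fold change of -0.90 (SE 0.49). Taf7, which binds Taf1, was the TFIID member with the highest level per kilobase of summed exons. It held 81.6, 90.5, 74.7 and 68.2 CPM under the heterozygote label and 47.2, 57.2, 123 and 81.6 CPM in wild type (log2 fold change 0.03, SE 0.27). Wild-type libraries lay both above and below the whole heterozygote-labelled range. Taf1, the largest subunit and an X-linked gene, held 27.9, 54.2, 59.3 and 25.4 CPM under the heterozygote label and 18.7, 24.8, 53.0 and 28.3 CPM in wild type (0.42, SE 0.38).

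Tbp and the remaining TAFs lay closer together. Tbp held 181, 151, 165 and 146.98 CPM in heterozygote-labelled replicates 1 to 4, against 128, 129, 153 and 170 CPM in wild-type replicates 1 to 4 (log2 fold change 0.15, SE 0.13). Wild-type replicate 4 lay within the heterozygote-labelled range. Its exons sum to 13399 bases, the longest of the set, which places it at 11.4 CPM per kb. Log2 fold changes of Taf3, Taf5, Taf11, Taf12 and Taf13 lay between -0.28 and 0.13, and all overlapped. Across the 13 TFIID members tested, 5 differences were positive and 8 negative, with a median of -0.10.

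TFIIB, TFIIE and TFIIF showed small differences. Gtf2b, the single subunit of TFIIB, averaged 50.3 ± 7.25 CPM in heterozygote-labelled and 47.4 ± 4.69 CPM in wild-type libraries (SD, n = 4 each). Gtf2e2, the beta subunit of TFIIE, held 156, 129, 103 and 122 CPM in heterozygote-labelled replicates 1 to 4, against 124, 127, 125 and 134 CPM in wild-type replicates 1 to 4. Heterozygote-labelled libraries lay on both sides of the narrow wild-type range. Gtf2e1, the alpha subunit, held 51.3, 55.0, 64.2 and 36.8 CPM under the heterozygote label and 57.5, 47.1, 61.3 and 51.8 CPM in wild type. The alpha subunit thus stood at 0.157 ± 0.0544 of the beta subunit per kilobase in heterozygote-labelled and 0.160 ± 0.0218 in wild-type libraries (SD, n = 4 each).

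In TFIIF, Gtf2f1, the large subunit, was the lower of the pair. It held 21.4, 32.1, 21.98 and 29.9 CPM in heterozygote-labelled replicates 1 to 4, against 26.3, 38.2, 25.2 and 37.8 CPM in wild-type replicates 1 to 4 (log2 fold change -0.28, SE 0.23). Gtf2f2, the small subunit, held 38.0, 43.9, 43.8 and 51.5 CPM under the heterozygote label and 42.6, 48.4, 54.9 and 37.3 CPM in wild type (-0.05, SE 0.18). Both genes overlapped between the genotypes.

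Core TFIIH had differences of both signs, 4 positive and 3 negative among 7 members. Gtf2h5, its smallest subunit, held 175, 207, 205 and 188 CPM in heterozygote-labelled replicates 1 to 4, against 158, 138, 215 and 161 CPM in wild-type replicates 1 to 4 (log2 fold change 0.21, SE 0.14). Wild-type replicate 3 was the highest library. Gtf2h4, which docks the translocase Ercc3, held 11.9, 12.9, 11.7 and 26.8 CPM under the heterozygote label and 25.3, 26.6, 21.01 and 18.8 CPM in wild type (-0.53, SE 0.31). Of the 4 heterozygote-labelled libraries, 3 lay below all wild-type ones and replicate 4 above them. Ercc3 itself averaged 24.9 ± 8.66 and 19.8 ± 2.28 CPM in heterozygote-labelled and wild-type libraries (0.33, SE 0.27), and Gtf2h1, Gtf2h2 and Gtf2h3 lay between -0.25 and 0.21 on the log2 scale.

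CAK transcripts were uneven in level and overlapped between genotypes. Ccnh held 287, 331, 366 and 319 CPM in heterozygote-labelled replicates 1 to 4, against 267, 243, 341 and 283 CPM in wild-type replicates 1 to 4, with overlap (log2 fold change 0.20, SE 0.13). Cdk7, the kinase that it activates, averaged 138 ± 14.4 and 125 ± 17.04 CPM in heterozygote-labelled and wild-type libraries (0.14, SE 0.13). Mnat1, the assembly factor of the module and its member with the lowest level, held 46.0, 47.9, 50.8 and 43.3 CPM under the heterozygote label and 55.1, 41.8, 53.0 and 41.0 CPM in wild type (-0.02, SE 0.16). Per kilobase, Cdk7 stood at 0.356 ± 0.0323 of Ccnh in heterozygote-labelled and 0.372 ± 0.0423 in wild-type libraries (SD, n = 4 each).

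Most members varied less between libraries of 1 genotype than genes of like level, a measure that does not use the difference between genotypes. The median within-genotype SD of log2 CPM was 0.25 in the 30 members and 0.46 in all genes tested. Set against all tested genes, coding or not, with a mean CPM within a factor of 2, 24 of the 30 members had a narrower spread than the middle gene. Gtf2a1 had an SD of 0.07, narrower than 99.1% of 1395 such genes, but a narrow spread was part of why it had stood out. Gtf2h3, at an SD of 0.10 (97.8% of like genes wider), Taf5 at 0.18 (97.3%) and Taf13 at 0.13 (96.6%) were not singled out by the comparison. Taf1 at 0.63 (8.31% wider), Taf7 at 0.45 (10.7%), Taf2 at 0.53 (12.9%) and Taf6 at 0.84 (14.4%) lay at the other end. Gtf2h1 of core TFIIH, at 0.58 (20.2%), also spread more widely than most genes of like level.

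**Figure D5:**
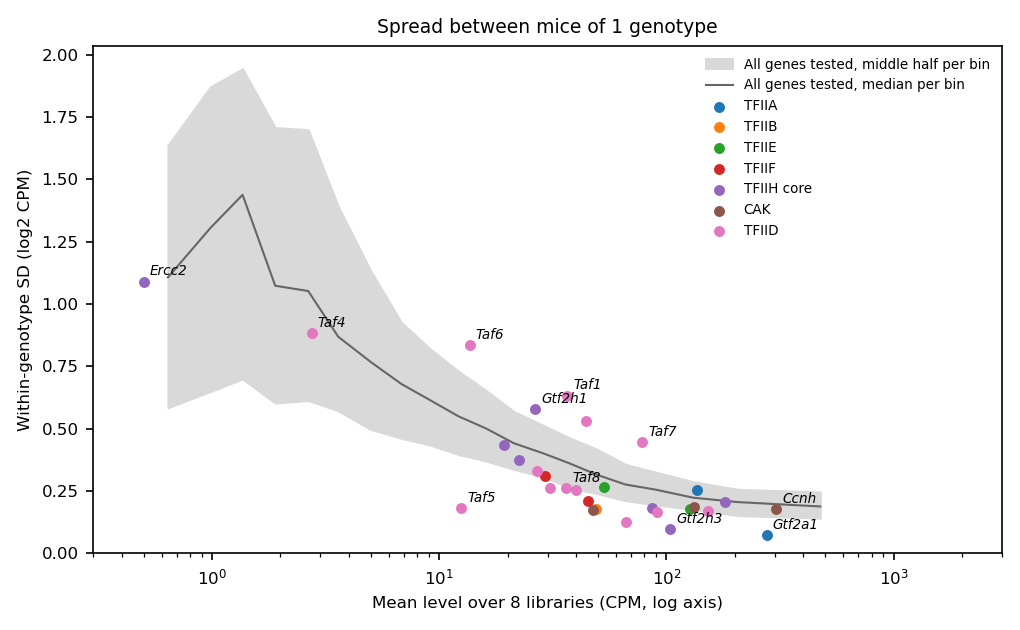
Within-genotype SD of log2 CPM against mean CPM (log axis) for the 30 members tested, coloured by complex, over the median and the middle part (quartiles) of all genes tested in 20 bins of level. Most members lie under the median line, and Taf1, Taf2, Taf6, Taf7 and Gtf2h1 lie well above it.

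Paralogs of the members spanned a wide range of levels. Taf9b, the X-linked paralog of Taf9, held 60.2, 80.9, 76.7 and 70.4 CPM in heterozygote-labelled replicates 1 to 4, against 99.6, 95.1, 122 and 68.9 CPM in wild-type replicates 1 to 4 (log2 fold change -0.42, SE 0.18). Wild-type replicate 4 lay within the heterozygote-labelled range. Tbpl1, the TBP-like factor, averaged 121 ± 24.1 CPM in heterozygote-labelled and 121 ± 18.7 CPM in wild-type libraries and stood at 37.1 CPM per kb. Per kilobase this lay above the 11.4 of Tbp, whose exons sum to 13399 bases, but on the CPM scale the order was the reverse, with Tbp at 161 and 145 CPM in heterozygote-labelled and wild-type libraries. Taf5l and Taf6l, which belong to the coactivator SAGA, stood at 5.11 and 9.10 CPM per kb, and Taf15, an RNA-binding TAF relative, at 0.465. Tbpl2 and Taf7l had 0 counts in all 8 libraries, which allows up to 0.184 CPM in the shallowest of them.

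Among genes that act beside the general factors, none passed over all genes by edgeR. Counts at an unadjusted edgeR p under 0.05 are given beside the 5.66% of all genes tested that had one. Of all genes tested, 2.37% were higher and 3.29% lower at that level. Among the 13 RNA polymerase II subunits 0 of 13 had such a p, with a median log2 fold change of 0.07, and among 16 SAGA genes 0 of 16, with a median of 0.01. Mediator, the bridge between activators and the polymerase, had 1 of 33 higher and 1 lower, with a median of 0.06. Those were the kinase gene Cdk19 at 0.60 (SE 0.27) and Med12l at -0.71 (SE 0.28). Of 25 pausing and elongation genes 2 were lower at that level, the elongation factor Ell2 at -1.00 (SE 0.32) and the pausing subunit Nelfcd at -0.81 (SE 0.31), with a list median of 0.05. Ell2 held 15.2, 11.9, 8.24 and 18.1 CPM in heterozygote-labelled replicates 1 to 4, against 18.2, 23.4, 25.1 and 40.1 CPM in wild-type replicates 1 to 4. Its groups barely separated, and 1.82% of all genes tested separated in this direction. Of 7 factors of polymerases I and III that bind TBP or its partners, Brf1 was lower at that level, with 10.8 ± 3.89 and 18.2 ± 2.63 CPM in heterozygote-labelled and wild-type libraries (SD, n = 4 each). The Brf1 groups barely separated too.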

How the data were processed

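Per the labels' protocols, rRNA-depleted RNA went into directional libraries (11 PCR cycles, paired 75-base reads). Tools named per the submitters' processing notes are Trim Galore, cutadapt and STAR 2.5.1b, with the build GRCm38. The deposited values are raw fragment counts per gene, made by the authors with featureCounts 1.6.2 in reverse-stranded mode on GENCODE M17, per the file headers. Fragments that overlap several genes on 1 strand or map to several places were left out by those options, and no marking of PCR copies is recorded. Symbols came from GENCODE M21, and all 31 members matched.

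The members and gene lists were chosen with earlier results of these data known. Counts were filtered with filterByExpr, scaled by TMM and fitted with edgeR 4.0.16 in R 4.3.3 (robust quasi-likelihood, genotype as the only term, two-sided, Benjamini-Hochberg over 13992 genes, threshold 0.05). CPM values are TMM-scaled, with a prior of 2 counts on the log2 scale. Each SE was derived as the unsigned log2 fold change divided by the square root of edgeR's F statistic. After removal of the GC and length trend, it was derived from limma's t statistic. Levels per kilobase use the exon length in the files. DESeq2 1.42.0 and limma 3.58.1 (voom with quality weights) were alternatives. Fits were tested on simulated data. Genes described in full were the targeted gene, Gtf2a1 and Taf8, members that separated or had an unadjusted p under 0.05, and the highest and lowest member of each complex. Other members, and the motifs, were chosen after their values were seen. No 2 libraries agreed within sampling noise (lowest chi-square per degree of freedom 37.9). The labels give 4 mice per genotype, so libraries count as separate animals.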

Additional observations from a re-analysis of the deposited data

Results flagged for a closer look

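In 3 of 62 groups of 4 libraries (the 30 members tested and Gata2, in both genotypes), 1 library lay far from the others on the log2 CPM scale, where chance alone flags about 1 in 20 groups. Gtf2h4 stood at 26.8 CPM in heterozygote-labelled replicate 4, against 11.7 to 12.9 CPM in the other 3 of that genotype, and that gap made up 0.884 of the whole range. Cdk7 stood at 99.7 CPM in wild-type replicate 2, against 131 to 136 CPM in the others (0.881 of the range). Taf12 stood at 111 CPM in wild-type replicate 3, against 83.3 to 84.9 CPM in the others (0.931 of the range).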

How the results depend on the processing

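Calls depended on the test. DESeq2 called 29 genes and 2 members, and DESeq2 on every gene with a count, an alternative chosen after seeing the data, called 79 genes and 2 members. The cause was not tested. Every other alternative by edgeR or limma called 0 genes, as did the 8 fits that left out 1 library each. Genes at an unadjusted p under 0.05 numbered 1812 without wild-type replicate 3, against 792 with all libraries. The member median ran from -0.04 to 0.04 over the left-out libraries and was -0.10 after each library's GC and length trend was taken out. Of the 30 members, 20 kept their sign in every alternative, 10 of them positive and 10 negative. Gtf2a1 ran from 0.33 to 0.50 and Taf8 from -1.13 to -0.82. With the replicate number as a block 0 genes were called and the member median was -0.0091. By edgeR, genes at an unadjusted p under 0.05 numbered 946 with the block, against 792 without it. Libraries with the same number correlated at 0.0437, 0.00565, 0.0961 and 0.0215 in their deviations. The best-correlated wild-type library had the same number for heterozygote-labelled replicates 1 and 3, but not for 2 and 4. These correlations were small, so the numbers were not taken as pairs. With a term for sex, read from the Xist level of each library, 0 genes were called and the member median was -0.0090. Libraries of both Xist classes were present. Levels per kilobase, and the ranks and partner ratios read from them, depend on the length used. On the longest transcript in place of all exons, Gtf2a2 stood at 84.2 instead of 33.6 CPM per kb.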

Other observations

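Gtf2a1l, the germline paralog of Gtf2a1, had 21 counts in heterozygote-labelled replicate 4 and 0 in each of the other 7 libraries. Taf4b, a paralog of Taf4, was counted in all 8 libraries and held 0.351, 6.37, 7.74 and 2.51 CPM in heterozygote-labelled replicates 1 to 4, against 7.16, 11.9, 0.335 and 7.09 CPM in wild-type replicates 1 to 4. Its level per kilobase averaged 1.05 over all libraries, against 0.593 for Taf4, and the ranges overlapped.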
